A study of Mus musculus with 2 samples.

Results

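Type I interferon response genes were followed in mouse liver by cell class, in 2 libraries of single-cell RNA-seq. They were taken by symbol: Isg15, Ifit1, Ifit2, Ifit3, Irf7, Usp18, Oasl2 and Rsad2, which are 8 of the 32285 genes listed for both libraries, and all 8 had unique molecular identifiers (UMIs) in both. A UMI marks 1 captured RNA molecule, and a barcode marks 1 droplet. The WT library came from WT mice, and the HKO library from their littermates with a genotype given as AlbCRE and titled miR-33 HKO, in which a Cre recombinase driven by the albumin promoter, used for its activity in hepatocytes, removes a floxed miR-33. Whether other liver cells lost it was not tested. Mice of both groups were males that started CD-HFD, a fat-rich feed lacking choline, at 8 weeks of age and stayed on it for 6 months, a regimen used to induce steatohepatitis. Each library was 1 suspension pooled from 3 livers, in which purified hepatocytes and sorted live non-parenchymal cells were mixed in equal numbers. With 1 library per genotype there was no test between WT and HKO, and genotype, pool and preparation cannot be told apart. Every interval is a 95% interval for counting error only.

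Type I interferons are cytokines released by cells that sense foreign or misplaced nucleic acid. They bind a receptor made of Ifnar1 and Ifnar2, which activates the kinases Jak1 and Tyk2 and leads to a complex with Stat2 and Irf9 that binds interferon-stimulated response elements in promoters. Liver macrophages, endothelial cells and hepatocytes can all respond, and a low tonic response is usual without infection. Among the 8 genes, Isg15 encodes a ubiquitin-like protein that is joined to other proteins, and Usp18 encodes the protease that removes it and that also dampens signalling at the receptor. Ifit1, Ifit2 and Ifit3 encode related proteins that bind RNA or each other and restrain viral translation. Irf7 encodes a transcription factor that amplifies interferon production. Oasl2 belongs to the oligoadenylate synthetase family, and Rsad2 encodes viperin, a radical SAM enzyme that acts against viruses.

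The genes lie on 6 chromosomes, and the 3 Ifit genes lie close together on chromosome 19 (GRCm38.p6). Isg15 (ENSMUSG00000035692) is at chr4:156199424-156200818, Ifit1 (ENSMUSG00000034459) at chr19:34640889-34650009, Ifit2 (ENSMUSG00000045932) at chr19:34550550-34576534 and Ifit3 (ENSMUSG00000074896) at chr19:34583119-34588982. Irf7 (ENSMUSG00000025498) is at chr7:141263183-141266499, Usp18 (ENSMUSG00000030107) at chr6:121245906-121270917, Oasl2 (ENSMUSG00000029561) at chr5:114896926-114912245 and Rsad2 (ENSMUSG00000020641) at chr12:26442743-26456452. All 8 are annotated as protein coding. Promoters from RefSeq, 250 bases before to 50 after an annotated start of a gene, were given for 7 of the 8 genes. They were searched on both strands for GAAANNGAAA, the core spelling of an interferon-stimulated response element, with overlapping matches counted. Of the 7 genes, 4 had a match: Isg15, Ifit1, Ifit3 and Rsad2. Of all 32851 promoter windows, 3.44% had one, and of the 27025 genes with a window 3.99% had one. The matched stretches are shown because they are what these 4 promoters share, each read 5′ to 3′ on the gene's strand, with the matched bases (or their reverse complement) in capitals.
Isg15 (minus strand, chr4:156200860-156200911, 3 overlapping matches): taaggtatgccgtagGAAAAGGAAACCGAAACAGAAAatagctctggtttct
Ifit1 (plus strand, chr19:34640770-34640828, 2 matches): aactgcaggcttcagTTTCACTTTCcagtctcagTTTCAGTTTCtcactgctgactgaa
Ifit3 (plus strand, chr19:34583358-34583431, 2 matches): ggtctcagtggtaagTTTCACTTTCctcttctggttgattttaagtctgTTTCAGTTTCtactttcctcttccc
Rsad2 (minus strand, chr12:26456548-26456587, 1 match): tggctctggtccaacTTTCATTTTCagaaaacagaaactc
The matched bases run from 78 to 57 bases before the start of the promoter entry in Isg15 and from 104 to 76 in Ifit1. They run from 156 to 113 in Ifit3 and from 120 to 111 in Rsad2. In Ifit3 that start (window chr19:34583279-34583578) lies downstream of the gene's first base given above, so its matches fall inside the gene span. Ifit1 and Ifit3 carried the same 2 spellings in the same order. The windows of Ifit2, Irf7 and Oasl2 held no such letters, which says nothing of binding there. Among the other genes of the pathway, 17 of 43 type I interferon response genes with a window had a match (39.5%), as did 10 of 13 genes best known from type II interferon (76.9%) and 0 of 5 receptors.

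In total, 130451427 UMIs in 30078 barcodes came from WT and 52563185 UMIs in 20000 barcodes from HKO, with medians of 2658 and 1130 UMIs per barcode. After filters, 22601 and 15583 barcodes were used. They were clustered without the 8 genes and without the other interferon genes listed here, and classes were named from markers. Hepatocyte transcripts were found in every cluster, so barcodes without markers of another class were called hepatocyte-like from 5140 UMIs in WT and 1626 in HKO, 2 times the commonest depth of each library, and the rest were called barcodes of free RNA depth. These last numbered 20261 in WT and 10419 in HKO and were used as the background level. Whether some of them held a cell was not tested. A pair of subclusters (121 barcodes in WT and 180 in HKO) carried markers of other classes when compared with all barcodes, one of macrophages (Clec4f, Vsig4 and Cd5l among them) and the other of endothelial and stellate cells, but hepatocyte markers when compared with the other non-hepatocyte subclusters. They were divided by depth like the rest, and gave 17 and 68 hepatocyte-like barcodes and 104 and 112 of free RNA depth. Conversely, 92 of the WT and 263 of the HKO T and NK-like barcodes, in 2 subclusters, were named from their markers against all barcodes alone. Hepatocyte-like barcodes numbered 1932 and 3764, with median depths of 20161 and 4183.5 UMIs. The other classes were small in both libraries, WT first: 202 and 691 T and NK-like, 69 and 137 endothelial-like, 21 and 96 macrophage-like, 37 and 113 monocyte and dendritic-like, 34 and 168 B and plasma-like, and 23 and 90 with mixed macrophage and stellate markers. The smallest were those with mixed endothelial and stellate markers (8 and 32 barcodes), followed by the cholangiocyte-like (7 and 24), stellate-like (4 and 21) and neutrophil-like (3 and 28) classes. The macrophage-like barcodes were led by Mmp12, Gpnmb and Trem2, genes known from lipid-laden macrophages. They also carried the other macrophage markers, Clec4f, Vsig4, Cd5l, Timd4, Marco and Folr2 among them. The monocyte and dendritic-like class joined a subcluster led by Xcr1, Cd209a and Flt3 (17 and 62 barcodes) and one led by Siglech and Ccr9, which are plasmacytoid dendritic markers (20 and 51 barcodes). The class with mixed macrophage and stellate markers also carried all 10 endothelial markers when compared with all barcodes. Against the other non-hepatocyte subclusters these were Kdr, Cdh5, Gpr182 and Ehd3, too few to enter the name. With clustering at resolution 2.0, this class had 10 and 43 barcodes, beside 11 and 46 with mixed endothelial and macrophage markers.

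Macrophage-containing classes carried the 8 genes at the highest levels among classes with more than 10 barcodes in WT. Levels are in CPM, the UMIs of a gene summed over a class and scaled to all UMIs of that class. In WT the 8 genes together made up 526 CPM (463 to 594) in barcodes with mixed macrophage and stellate markers and 504 CPM (435 to 581) in macrophage-like barcodes. The mixed barcodes carried endothelial markers too, and the part of endothelial cells in their sum was not tested. Endothelial-like barcodes had 311 CPM (265 to 363), monocyte and dendritic-like barcodes 193 (150 to 245), and T and NK-like barcodes 124 (104 to 145). The pair of subclusters divided by depth despite markers of other classes stood at 181 CPM for WT and at 247 for HKO. T and NK-like barcodes lay near the 104 CPM (102 to 107) of free RNA depth. Hepatocyte-like barcodes, at 63.0 CPM (60.8 to 65.3), lay below it. B and plasma-like barcodes had the lowest sum, 35.0 CPM (15.1 to 69.0) from 8 UMIs. The smallest classes lay between 220 CPM in cholangiocyte-like and 452 CPM in neutrophil-like barcodes, the latter from 7 UMIs in 1 barcode. In the WT order, the intervals of neighbours failed to overlap only between monocyte and dendritic-like and T and NK-like barcodes, and between free RNA depth and hepatocyte-like barcodes.

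In HKO the order was similar, with higher sums in most classes. Neutrophil-like barcodes had 840 CPM (626 to 1105), from 51 UMIs, macrophage-like barcodes 824 (768 to 882) and barcodes with mixed macrophage and stellate markers 751 (702 to 804). In the 69 of these mixed barcodes with at least 3 of the 8 genes, macrophage markers summed to 11506 CPM. Endothelial markers summed to 5307 CPM there and stellate markers to 4972 CPM. Stellate-like barcodes had 702 CPM, but 29 of their 55 UMIs lay in 1 barcode, and without it they had 358 CPM (234 to 525). Barcodes with mixed endothelial and stellate markers had 609 CPM and endothelial-like barcodes 441 (386 to 501). The bottom of the order was close together: 219 CPM in monocyte and dendritic-like, 196 in cholangiocyte-like, 129 in T and NK-like, 112 (108 to 116) in hepatocyte-like barcodes, 111 (105 to 118) at free RNA depth and 91.0 in B and plasma-like barcodes. The interval of endothelial-like barcodes overlapped with neither that of barcodes with mixed endothelial and stellate markers above it nor that of monocyte and dendritic-like barcodes below it. Hepatocyte-like barcodes of HKO thus carried the 8 genes at 1.01 times (0.940 to 1.08) the level of free RNA depth in their own library, and those of WT at 0.603 times (0.577 to 0.630).

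**Figure D1:**
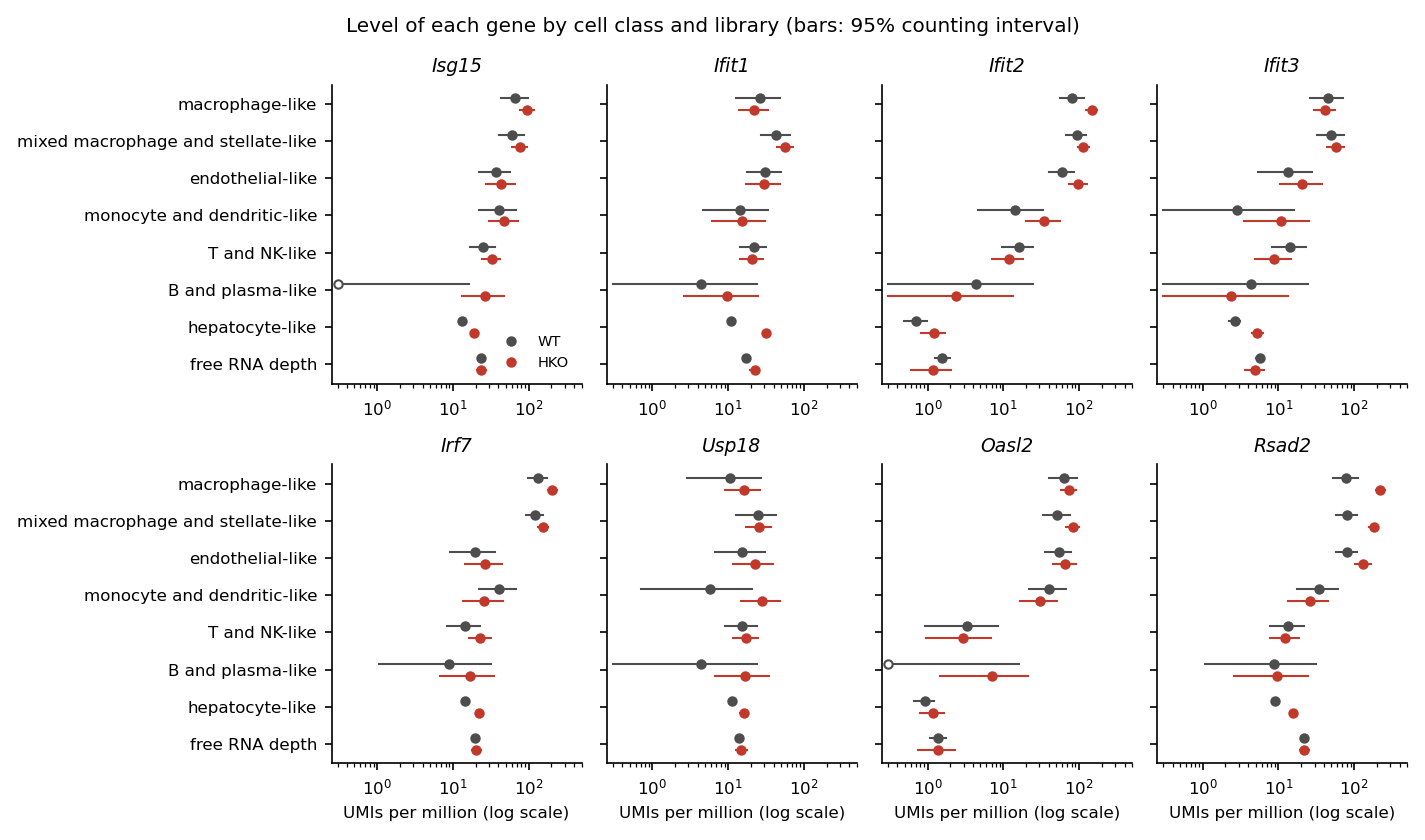
Levels of the 8 genes by cell class in the WT and HKO libraries. Each panel is 1 gene, the horizontal axis is CPM on a log scale, points are summed levels with their 95% counting intervals, and open circles at the left stand for classes with 0 UMIs. Only classes of 20 or more barcodes in both libraries, 8 in all, are shown, and intervals that reach below the axis end at its left. Ifit2, Oasl2, Rsad2 and Irf7 are far higher in macrophage-like than in hepatocyte-like barcodes in both libraries, while Ifit1 and Usp18 lie closer together over classes.

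The genes did not share 1 pattern over classes. Ifit2 and Oasl2 were low in hepatocyte-like barcodes and high in some of the non-parenchymal classes. Ifit2 had 0.711 CPM in WT against 1.21 CPM in HKO hepatocyte-like barcodes, against 81.8 and 147 CPM in macrophage-like and 59.9 and 98.4 CPM in endothelial-like barcodes. The macrophage-like level was 115 times (68.6 to 192) that of hepatocyte-like barcodes in WT and 122 times (82.8 to 185) in HKO. Oasl2 had 0.914 and 1.17 CPM in hepatocyte-like, 63.3 and 73.6 CPM in macrophage-like and 54.1 and 66.2 CPM in endothelial-like barcodes. Its macrophage-like level was 69.3 times (40.4 to 116) and 63.0 times (40.9 to 99.3) the hepatocyte-like one, in WT and HKO. For these 2 genes the level at free RNA depth was also low, 1.57 and 1.17 CPM for Ifit2 and 1.38 and 1.37 CPM for Oasl2. In T and NK-like barcodes Oasl2 had 3.36 and 2.95 CPM, and the intervals of its ratio to hepatocyte-like barcodes included 1. In B and plasma-like barcodes Ifit2 had 4.38 and 2.40 CPM, from 1 UMI in each library, and Oasl2 had 0 and 7.19 CPM.

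Irf7 and Rsad2 were also higher in macrophage-like barcodes, over a larger hepatocyte-like level. Irf7 had 132 CPM in WT against 206 CPM in HKO macrophage-like barcodes, 9.13 times (6.71 to 12.2) and 9.32 times (7.91 to 10.9) its level in hepatocyte-like barcodes. Rsad2 had 79.2 and 222 CPM there, 8.76 times (5.84 to 12.7) and 14.3 times (12.1 to 16.9) the hepatocyte-like level. In endothelial-like barcodes Rsad2 was high as well, at 81.2 and 132 CPM, while Irf7, at 19.3 and 26.5 CPM, was close to free RNA depth (19.5 and 20.3 CPM). Isg15 stood between, with 66.0 and 95.8 CPM in macrophage-like, 36.7 and 43.5 CPM in endothelial-like and 23.3 and 23.8 CPM at free RNA depth. Ifit3 had 44.9 and 41.3 CPM in macrophage-like barcodes against 5.68 and 4.88 CPM at free RNA depth.

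Usp18 and Ifit1 were spread most evenly. Usp18 had 10.6 CPM in WT against 16.1 CPM in HKO macrophage-like barcodes, 0.945 times (0.257 to 2.43) and 1.01 times (0.569 to 1.65) its hepatocyte-like level, and 14.1 and 15.02 CPM at free RNA depth. Ifit1 had 26.4 and 22.2 CPM in macrophage-like barcodes. Against hepatocyte-like barcodes that was 2.39 times (1.14 to 4.44) in WT and 0.699 times (0.435 to 1.06) in HKO, where hepatocyte-like barcodes held 31.8 CPM. In T and NK-like barcodes, Ifit2 stood above free RNA depth in both libraries, at 10.1 times (5.81 to 16.9) in WT and 10.1 times (4.70 to 22.6) in HKO, whereas Irf7, Usp18 and Ifit1 had intervals that included 1 in both libraries. Across 20 pairs of class and library, log2(CPM + 1) of Oasl2 and Rsad2 correlated with Pearson's r of 0.844, that of Ifit2 and Ifit3 with 0.815 and that of Isg15 and Ifit1 with 0.782. The r of Usp18 and Rsad2 was −0.178. These points share libraries, depth and free RNA.

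Shares of barcodes with a UMI varied with both depth and class. Irf7 was detected in 23.2% of hepatocyte-like barcodes in WT and 12.8% in HKO, in 4.83% and 1.94% at free RNA depth, and in 85.7% and 75.0% of macrophage-like barcodes. After thinning each barcode to 1000 UMIs, Irf7 was found in 1.60% and 2.10% of hepatocyte-like barcodes, against 2.00% and 1.97% of the 19885 and 3658 barcodes of free RNA depth that were deep enough. In thinned macrophage-like barcodes the shares were 14.3% and 18.8%. At this depth the shares in hepatocyte-like barcodes were close to those at free RNA depth, and those in macrophage-like barcodes lay above them. Single hepatocyte-like barcodes held up to 12 UMIs of Irf7 in WT and 5 in HKO, before thinning. At free RNA depth, where barcodes are shallower by definition, single barcodes held at most 3 and 2. For Rsad2 the thinned shares were 0.776% and 1.196% in hepatocyte-like barcodes, 2.20% and 1.61% at free RNA depth, and 9.52% and 17.7% in macrophage-like barcodes.

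In hepatocyte-like barcodes each of the 8 genes had a higher level in HKO than in WT, and Ifit1 differed most. Summed over the 8 genes, the level was 63.0 CPM in WT, from 3103 UMIs, and 112 CPM in HKO, from 2969 UMIs (ratio 1.77, 1.69 to 1.87). The counting interval lay above 1 for 7 genes, but not at every depth or in every subset of barcodes. Ifit1 had 11.0 CPM in the WT and 31.8 CPM in the HKO library (ratio 2.88, 2.58 to 3.21). Without Ifit1, the other 7 genes had 52.0 and 80.1 CPM (ratio 1.54, 1.45 to 1.63). Ifit3 had 2.66 and 5.27 CPM (ratio 1.98, 1.55 to 2.54), but its near-identical copy Ifit3b makes the assignment of its reads uncertain. Rsad2 had 9.04 and 15.5 CPM (ratio 1.71, 1.49 to 1.96), and Irf7 had 14.5 and 22.1 CPM (ratio 1.53, 1.37 to 1.71). Isg15 and Usp18, of the ubiquitin-like system, had smaller ratios. Isg15 had 13.04 and 18.8 CPM (ratio 1.44, 1.28 to 1.63), and Usp18 had 11.2 and 16.0 CPM (ratio 1.44, 1.26 to 1.63). Ifit2, with 35 and 32 UMIs, had a ratio of 1.70 (1.02 to 2.82), but 12 of the HKO UMIs lay in the 68 barcodes of the subclusters with markers of other classes, without which the ratio was 1.25 (0.672 to 2.27). Without those subclusters the ratio of the sum was 1.76 (1.67 to 1.85). Oasl2, with 45 and 31 UMIs, had a ratio of 1.28 (0.782 to 2.06), which did not differ beyond counting error.

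Of 7103 genes with a mean of at least 10 CPM in hepatocyte-like barcodes, the HKO level was at least 1.5-fold higher for 2.48% and at least 1.5-fold lower for 4.31%. Of the 8 genes, 5 reached that mean (Isg15, Ifit1, Irf7, Usp18 and Rsad2), of which 3 were at least 1.5-fold higher (Ifit1, Irf7 and Rsad2) and 0 lower. Rsad2, at 9.04 CPM in WT, reached the mean only through its HKO level, and of the 4 genes above 10 CPM in both libraries 2 were at least 1.5-fold higher. With the WT minimum of 5140 UMIs set in both libraries, which left 1932 and 1640 barcodes, 2.39% of 7102 genes were at least 1.5-fold higher and 4.32% lower, and 2 of the 4 genes were at least 1.5-fold higher and 0 lower. These were Ifit1, at 2.94 (2.62 to 3.30), and Irf7, at 1.504 (1.33 to 1.70). Usp18 had a ratio of 1.48 (1.29 to 1.70), Isg15 of 1.26 (1.10 to 1.44) and Rsad2 of 1.24 (1.05 to 1.45). Of the genes with lower levels, Ifit3 had a ratio of 1.55 (1.17 to 2.05), while the intervals of Ifit2, at 1.22 (0.648 to 2.21), and Oasl2, at 1.05 (0.588 to 1.82), included 1. The sum then had a ratio of 1.66 (1.57 to 1.75).

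At free RNA depth the 8 genes together differed little between the libraries, with 104 CPM in the WT and 111 CPM in the HKO library (ratio 1.06, 0.996 to 1.13). Ifit1 was the exception, with 17.3 and 22.5 CPM and a ratio of 1.30 (1.12 to 1.51). The other 7 genes had ratios between 0.743 (Ifit2) and 1.07 (Usp18), with intervals that included 1. In HKO hepatocyte-like barcodes, Ifit1 alone of the 8 genes lay above free RNA depth beyond counting error, at 1.41 times (1.22 to 1.64), while Isg15 and Rsad2 lay below it, at 0.792 times (0.678 to 0.926) and 0.703 times (0.596 to 0.830). The part of free RNA in the hepatocyte-like levels was not tested.

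**Figure D2:**
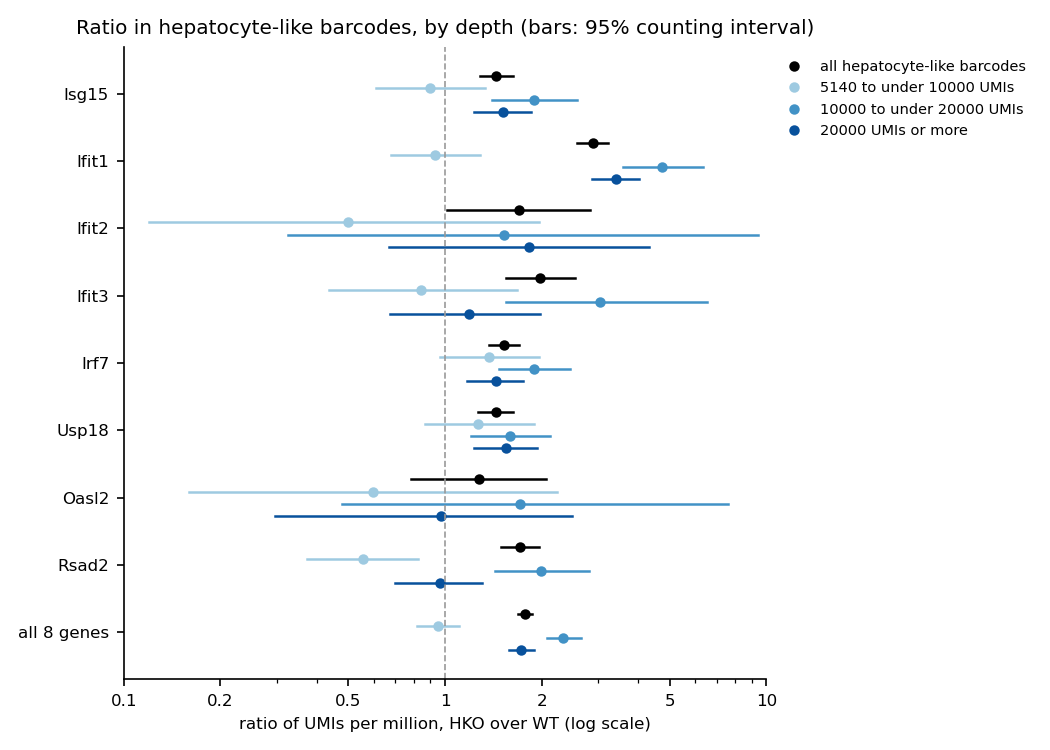
Ratio of HKO over WT for each gene and for the sum in hepatocyte-like barcodes, on a log axis, with 95% counting intervals. Points are shown for all barcodes and for those of 5140 to under 10000, 10000 to under 20000, and 20000 UMIs or more. The ratios of the sum are 0.953, 2.34 and 1.73 in the 3 depth ranges, and Rsad2 lies below 1 in the lowest range.

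Depth and RNA quality moved with these ratios. In barcodes of 5140 to under 10000 UMIs the sum was 88.9 CPM in WT (462 barcodes) and 84.7 CPM in HKO (736 barcodes) (ratio 0.953, 0.820 to 1.11). In those of 10000 to under 20000 UMIs it was 47.9 and 112 CPM (ratio 2.34, 2.07 to 2.64), and from 20000 UMIs it was 63.8 and 110 CPM (ratio 1.73, 1.58 to 1.89). The difference between the libraries was thus seen in the deeper barcodes and not in the shallowest shared range. Ifit1 had ratios of 0.932 (0.681 to 1.28), 4.73 (3.57 to 6.35) and 3.40 (2.87 to 4.02) over the 3 ranges, and Irf7 of 1.37 (0.968 to 1.97), 1.89 (1.47 to 2.45) and 1.44 (1.17 to 1.75). Usp18 had ratios of 1.27, 1.59 and 1.55. Rsad2 changed sides, with 0.555 (0.373 to 0.824), 1.99 (1.43 to 2.80) and 0.963 (0.697 to 1.31). The 2124 hepatocyte-like HKO barcodes below 5140 UMIs had no WT counterpart in this class, because of the minimum set for each library, and held 139 CPM of the 8 genes.

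The mitochondrial share of UMIs, which rises in damaged cells, had medians of 12.0% in WT and 9.87% in HKO hepatocyte-like barcodes. Among barcodes with at least 5140 UMIs, the sum had a ratio of 1.09 (0.943 to 1.26) below a share of 2%, and of 1.16 (0.907 to 1.48) at 2 to under 5%. It was 2.06, 2.14 and 1.68 at 5 to under 10%, 10 to under 20% and 20 to under 50%. In WT the sum was lower in each further range, from 88.0 to 39.1 CPM, while in HKO it was 95.9, 81.7, 144, 114 and 65.8 CPM. Below 2%, the nuclear RNA Malat1 was at 7563 CPM in the WT and 15554 CPM in the HKO library, and median depths were 25147 and 8938 UMIs. Rsad2 there had 16.5 and 2.08 CPM (ratio 0.127, 0.0407 to 0.2997), and Usp18 had 10.5 and 19.2 CPM (ratio 1.83, 1.28 to 2.55). From 10 to under 20%, Rsad2 had 4.16 and 12.2 CPM and a ratio of 2.94, and Ifit1 had 11.9 and 42.1 CPM and a ratio of 3.54. The part of depth and of RNA quality in the HKO over WT ratios was not tested.

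**Figure D3:**
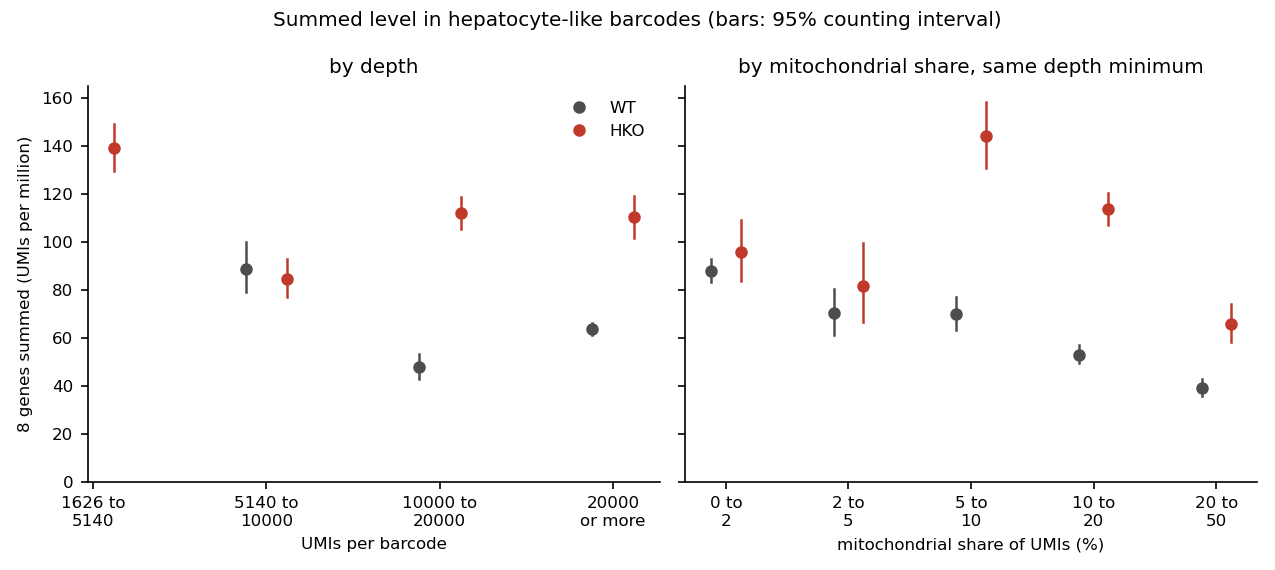
Summed level of the 8 genes in hepatocyte-like barcodes by depth (left) and, among barcodes with at least 5140 UMIs, by mitochondrial share of UMIs (right), in CPM from 0 with 95% counting intervals. The libraries overlap at 5140 to under 10000 UMIs and below a mitochondrial share of 5%, and HKO is higher in the other shared ranges.

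Single hepatocyte-like barcodes held many UMIs of the 8 genes. In WT, the 3 hepatocyte-like barcodes with the most UMIs of the 8 genes held 72, 69 and 58, and in HKO 79, 77 and 73. Their depths were 8032, 38443 and 52780 UMIs in WT and 19836, 33871 and 10265 UMIs in HKO. Single barcodes of free RNA depth held at most 5 and 12 UMIs of the 8 genes. This class is shallower by definition, and those 2 barcodes had 4665 and 1480 UMIs in all. The first WT barcode had 27 UMIs of Ifit1 and 29 of Rsad2 among 8032 UMIs in all, and the second had UMIs of all 8 genes, 21 of them of Ifit3. The first HKO barcode had 36 of Ifit1 and 20 of Rsad2, the second 42 and 22, and the third 25 and 43. Ifit1 and Rsad2 together led most of these barcodes in HKO, while in WT several were led by 1 gene, such as Rsad2 with 24, 27 and 25 UMIs in the barcodes ranked 7 to 9 and Isg15 with 23 in that ranked 10. The 10 top barcodes of each library had 6 to 8 of the 8 hepatocyte markers. They had UMIs of 0 or 1 of 12 macrophage markers, 0 to 2 of 10 endothelial markers, 0 or 1 of 12 T and NK markers and 0 of 7 neutrophil markers.

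**Figure D4:**
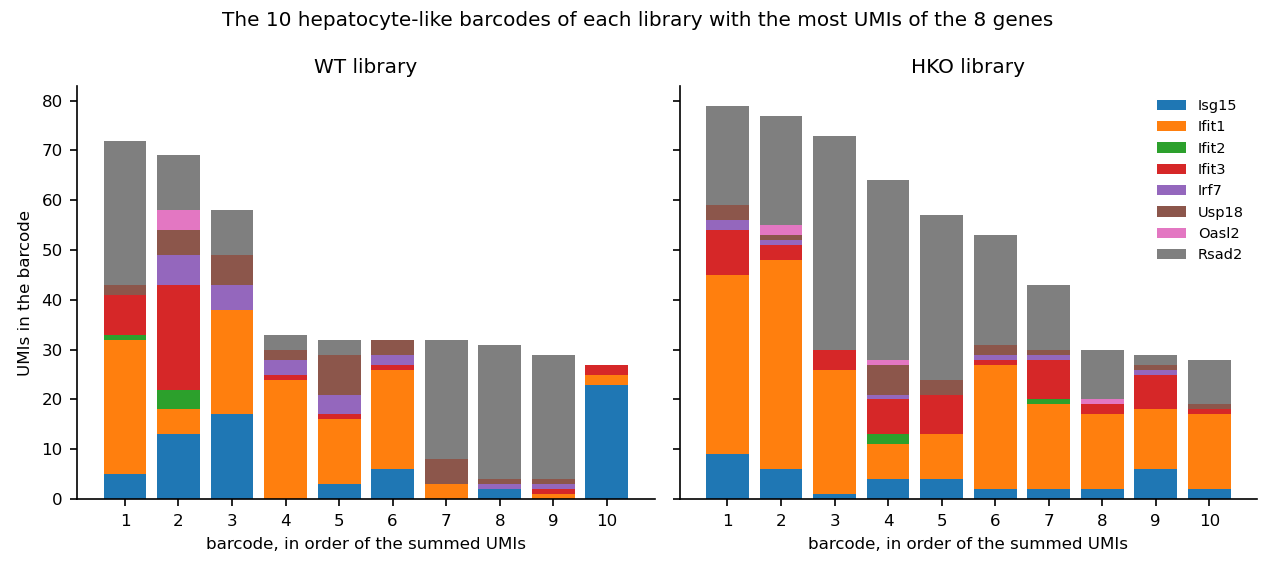
UMIs of each of the 8 genes, stacked, in the 10 hepatocyte-like barcodes with the most such UMIs in WT and in HKO. Totals run from 72 to 27 UMIs in WT and from 79 to 28 UMIs in HKO, with Ifit1 and Rsad2 making up most of the HKO bars.

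The share of the UMIs that lay in such barcodes differed by gene. The 10 barcodes with the highest sums held 13.4% of the summed UMIs of the 8 genes in WT and 18.0% in HKO. For each gene, the 10 barcodes with its highest counts were taken. They held 53.5% of all Rsad2 UMIs in HKO hepatocyte-like barcodes and 34.2% in WT, 56.3% and 42.9% for Ifit2 and 42.1% and 32.1% for Ifit3. The shares were 45.2% and 42.2% for Oasl2, 26.3% and 23.6% for Ifit1, 16.8% in both for Isg15, 8.45% and 8.91% for Usp18, and 5.97% and 10.1% for Irf7. A gene detected in few barcodes has a high share however its UMIs are spread. In HKO, Ifit2 was detected in 24 barcodes, Oasl2 in 27 and Irf7 in 483. Counting intervals take every UMI as independent and so are too narrow for genes such as Rsad2 and Ifit2. Without each gene's 10 top barcodes the ratio of HKO over WT was 2.76 (2.44 to 3.14) for Ifit1, 1.56 (1.39 to 1.76) for Irf7 and 1.44 (1.25 to 1.64) for Usp18. It was 1.42 (1.25 to 1.62) for Isg15 and 1.67 (1.22 to 2.28) for Ifit3. The intervals included 1 for Rsad2, at 1.202 (0.997 to 1.45), Ifit2, at 1.29 (0.603 to 2.69), and Oasl2, at 1.21 (0.614 to 2.31). With the same minimum of 5140 UMIs in addition it was 0.588 (0.449 to 0.762) for Rsad2, which was then detected in 236 WT and 73 HKO barcodes, so that leaving out 10 took a larger part of the HKO barcodes. The ratio was then 1.16 (0.791 to 1.69) for Ifit3, 1.19 (1.02 to 1.38) for Isg15 and 2.73 (2.39 to 3.12) for Ifit1. Ifit2 and Oasl2 were detected in only 11 and 16 HKO barcodes at that minimum, too few to leave out 10. The sum without its 10 top barcodes had a ratio of 1.68 (1.59 to 1.77), or 1.51 (1.42 to 1.61) with the same minimum.

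Some hepatocyte-like barcodes held several of the genes. At least 3 of the 8 were detected in 237 WT barcodes (12.3%, 10.8 to 13.8) and 142 HKO barcodes (3.77%, 3.19 to 4.43). These barcodes were deeper than the others, with medians of 43267 against 18242 UMIs in WT and 17437.5 against 3949 in HKO. Their median mitochondrial shares were 1.42% against 12.8% in WT and 11.7% against 9.77% in HKO. At free RNA depth, 37 of 20261 (0.183%) and 4 of 10419 (0.0384%) barcodes had 3 or more, and among macrophage-like barcodes 18 of 21 and 66 of 96 did. Of the WT hepatocyte-like barcodes with Rsad2, 33.1% also had Ifit1, against 14.4% of those without, and in HKO the shares were 30.7% and 9.71%. Barcodes with Rsad2 were deeper than those without in both libraries, at 33512 against 19115.5 UMIs in WT.

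Some of the other interferon genes were higher in the hepatocyte-like barcodes with at least 3 of the 8. A gene with at least 20 UMIs was at least 1.5-fold higher there than in the other hepatocyte-like barcodes for 9.97% of all genes tested in WT and 6.80% in HKO. Of the other type I interferon response genes 17 of 44 were so in WT and 22 of 43 in HKO, and of the genes best known from type II interferon 10 of 13 and 13 of 13. Cmpk2, the neighbour of Rsad2 that encodes a nucleotide kinase, was 1.66-fold higher in WT and 10.6-fold in HKO. Ifit3b was 4.28-fold and 10.4-fold higher, a value that is not independent of the choice of barcodes, since its reads may be shared with Ifit3. Ifi44 was 1.71-fold and 3.86-fold higher and Oasl1 1.39-fold and 3.31-fold. Of the chemokines that draw T cells, Cxcl9 was 3.37-fold and 8.99-fold and Cxcl10 4.27-fold and 7.46-fold higher. Gbp2, a guanylate-binding protein gene, was 6.07-fold and 3.09-fold higher. Of the 5 receptors and the 5 inhibitors tested, 0 were at least 1.5-fold higher in either library.

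Markers of other cell types were present in these barcodes, at levels that differed by list. The 12 macrophage markers summed to 44.7 CPM in the WT barcodes with at least 3 of the 8 genes and 30.5 CPM in the others (ratio 1.46, 1.32 to 1.62), and to 57.0 and 54.5 CPM in HKO (ratio 1.05, 0.874 to 1.24). By comparison, the same list summed to 18385 CPM in the macrophage-like barcodes of HKO with at least 3 of the genes. The 10 endothelial markers had ratios of 0.836 in WT and 1.33 in HKO, the 9 stellate markers 0.517 and 2.97 (92.1 against 31.0 CPM), the 11 monocyte and dendritic markers 0.831 and 2.36 (28.7 against 12.2 CPM), and the 5 mesothelial markers 0.577 and 9.17 (8.77 against 0.957 CPM). The 7 plasmacytoid dendritic markers had ratios of 1.41 and 1.26, at 162 and 74.6 CPM in the barcodes with at least 3 of the genes. The 12 T and NK markers had ratios of 1.18 and 1.37, the 8 B and plasma markers 0.724 and 0.0859 and the 7 neutrophil markers 0.833 and 0.314. The 6 erythroid markers were at 124 and 722 CPM in these barcodes (ratios 0.131 and 0.275). The 7 cholangiocyte markers were at 69.2 and 53.4 CPM (ratios 0.661 and 0.819). Of the macrophage list 0 markers were at 0 UMIs in WT and 2 in HKO, and of the neutrophil list 4 and 5. The 8 hepatocyte markers were 1.25-fold and 1.11-fold higher. The part of other cells or of doublets in these barcodes was not tested.

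**Figure D5:**
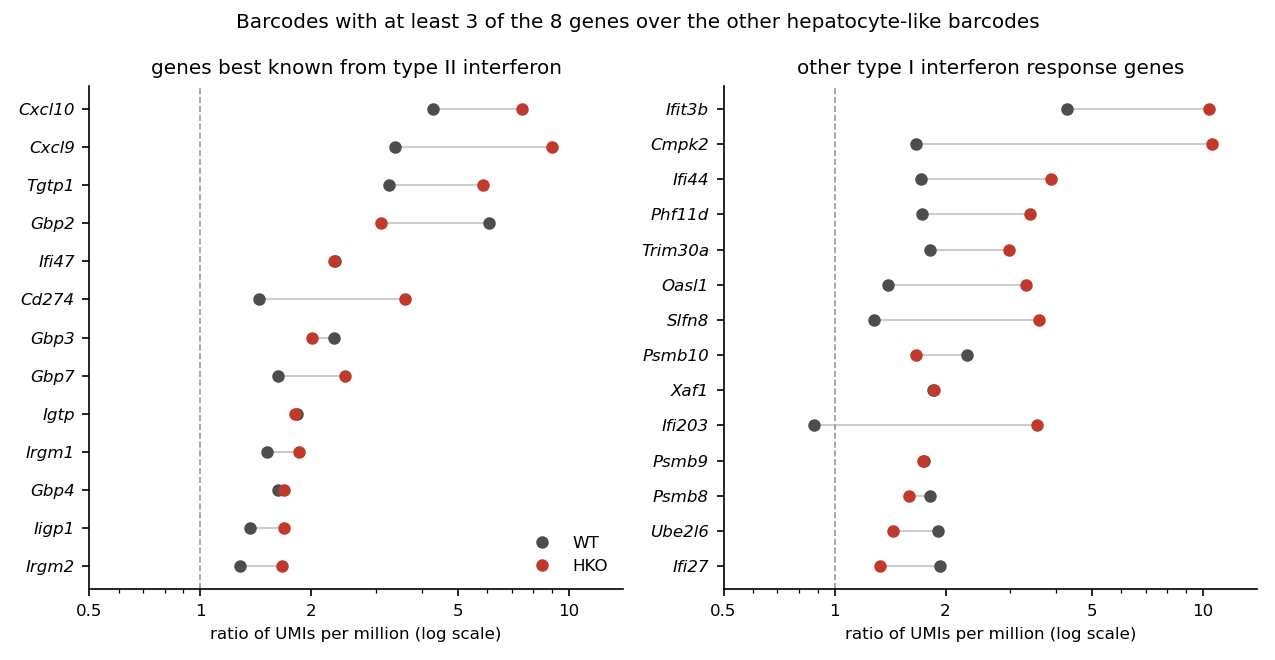
Ratio of the level in hepatocyte-like barcodes with at least 3 of the 8 genes over that in the other hepatocyte-like barcodes, for WT and HKO, on a log axis. Each point is 1 gene in 1 library, gray lines join the libraries, and the panels hold 13 genes best known from type II interferon and the 14 other type I interferon response genes with the highest ratios over both libraries. Cmpk2 reaches 10.6 in HKO, Ifit3b may share reads with Ifit3, and all type II genes shown lie above 1 in both libraries.

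Upstream of the 8 genes, receptor genes had ratios of HKO over WT from 0.983 to 1.24 in hepatocyte-like barcodes, and signalling and transcription genes from 0.828 (Irf3) to 1.28 (Irf9). Of 3 receptor genes, 8 signalling and transcription genes, 4 inhibitors and 4 nucleic acid sensors and adaptors with a mean of at least 10 CPM, 0 were at least 1.5-fold higher or lower, beside 2.48% and 4.31% of all genes, shares at which so few genes would give few calls. Ifnar1 had a ratio of 0.983 (0.859 to 1.12) and Ifnar2 of 1.24 (1.17 to 1.32). Jak1 was at 0.979 and Stat2 at 1.03. Irf9, a DNA-binding subunit of the complex, had 27.8 CPM in the WT and 35.4 CPM in the HKO library (ratio 1.28, 1.17 to 1.39). Of the sensors of cytosolic RNA, Ddx58 had a ratio of 1.38 (1.24 to 1.54) and Ifih1 of 1.16 (1.06 to 1.27).

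Other genes of the interferon response reached a 1.5-fold difference about as often as all genes in hepatocyte-like barcodes, of which 2.48% were higher and 4.31% lower. Of 26 other type I interferon response genes tested, 1 was at least 1.5-fold higher, the RNA helicase gene Ddx60 at 1.58 (1.38 to 1.80), and 1 at least 1.5-fold lower, Bst2, the gene for the virus-tethering protein tetherin, at 0.620 (0.596 to 0.645). In direction 20 were higher and 6 lower, beside 3302 of 7103 genes higher and 3801 lower, with a median log2 ratio of 0.22. Those with the highest counts were Ifitm3, with 680 CPM in WT, 837 CPM in HKO and a ratio of 1.23, Lgals9 at 0.912, Bst2, and Ifi27 at 1.25. Of 7 genes best known from type II interferon, 0 were at least 1.5-fold higher and 1 lower, the GTPase gene Irgm1 at 0.594. The median log2 ratio of the type I list was −0.08 in barcodes of 5140 to under 10000 UMIs, 0.42 at 10000 to under 20000 and 0.15 from 20000, so it had its lowest value in the same range as the 8 genes.

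In macrophage-like barcodes the 8 genes together had 504 CPM in the WT and 824 CPM in the HKO library (ratio 1.63, 1.39 to 1.92), from 191 and 817 UMIs. The genes differed. Rsad2 had the largest ratio, with 79.2 and 222 CPM and a ratio of 2.80 (1.91 to 4.25), and Ifit2 had 81.8 and 147 CPM (ratio 1.80, 1.21 to 2.74). Irf7 had 132 and 206 CPM (ratio 1.56, 1.14 to 2.17). For the other 5 genes the interval included 1, with ratios of 1.53 for Usp18, 1.45 for Isg15, 1.16 for Oasl2, 0.921 for Ifit3 and 0.841 for Ifit1. Of all 9470 genes with at least 10 counts, 21.6% were at least 1.5-fold higher and 16.2% lower, and of the 8 genes 4 were higher and 0 lower. Scaled by albumin (Alb), free RNA would account for 7.59 of 191 UMIs in WT and 8.69 of 817 in HKO. Among the other interferon genes of this class, Cxcl9 had 18 and 196 UMIs and a ratio of 4.16 (2.56 to 7.17), Nlrc5 6 and 47 UMIs and a ratio of 2.99 (1.28 to 8.57), and Ifnar1 12 and 66 UMIs and a ratio of 2.10 (1.13 to 4.27). Bst2 was lower here too, at 0.558 (0.446 to 0.699). With 21 WT barcodes, these values rest on few cells.

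In barcodes with mixed macrophage and stellate markers, Rsad2 again had the largest ratio. The sum was 526 and 751 CPM (ratio 1.43, 1.24 to 1.65). Rsad2 had 81.0 and 183 CPM (ratio 2.25, 1.59 to 3.26), and Oasl2 51.9 and 82.8 CPM (ratio 1.59, 1.02 to 2.59). All 8 genes had a ratio above 1. Of all genes tested 21.5% were at least 1.5-fold higher and 16.4% lower, and of the 8 genes 2 were higher and 0 lower, close to that share. In endothelial-like barcodes the sum was 311 and 441 CPM (ratio 1.42, 1.15 to 1.74). Rsad2 had 42 and 70 UMIs, or 81.2 and 132 CPM (ratio 1.63, 1.10 to 2.45), and Ifit2 had 31 and 52 UMIs (ratio 1.64, 1.03 to 2.65). The shares of all genes at least 1.5-fold higher and lower were 18.1% and 18.8%, and of the 8 genes 3 were higher and 0 lower.

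In T and NK-like barcodes the difference between the libraries was within counting error. The sum was 124 CPM in the WT and 129 CPM in the HKO library (ratio 1.05, 0.845 to 1.30), and of 7 genes tested 1 was at least 1.5-fold higher, Irf7, and 1 lower, Ifit3, beside 15.7% and 18.4% of all genes. Neither interval excluded 1, and without the 2 subclusters named against all barcodes alone Irf7 had a ratio of 0.984 (0.509 to 1.96) and Ifit3 of 1.51 (0.555 to 4.76). The monocyte and dendritic-like class was compared by subcluster. In the subcluster led by Siglech and Ccr9 the 8 genes had 16 UMIs in WT and 37 in HKO, at 128 and 296 CPM (ratio 2.30, 1.25 to 4.44). Without the barcode with the most UMIs of the 8 genes in each library, which held 3 and 12, the ratio was 1.81 (0.891 to 3.85), an interval that included 1. Ifit2 had 2 and 10 UMIs, 9 of the 10 in 1 barcode. In the subcluster led by Xcr1, Cd209a and Flt3 there were 51 and 64 UMIs, at 229 and 190 CPM (ratio 0.829, 0.565 to 1.22). B and plasma-like barcodes had 8 and 38 UMIs of the 8 genes, or 35.0 and 91.0 CPM (ratio 2.60, 1.19 to 6.45), with 0 and 11 UMIs of Isg15. In HKO these barcodes lay at or below free RNA depth, with overlapping intervals. Barcodes with mixed endothelial and stellate markers had a ratio of 1.62 (1.22 to 2.17), and Rsad2 there had 7 and 38 UMIs and a ratio of 2.70 (1.19 to 7.16), with 4 of the 7 in 1 barcode. In stellate-like barcodes Isg15 had 1 and 20 UMIs, 17 of the 20 in 1 barcode, and Rsad2 had 6 and 2 UMIs, 5 of the 6 in 1 barcode, so these counts describe single barcodes.

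Transcripts of the interferons themselves were nearly absent. Over all barcodes, Ifnb1 had 6 UMIs in WT and 2 in HKO, Ifnk had 20 and 4, Ifna2 had 0 and 1, and the other 15 type I interferon genes had 0 in both. Ifng, the type II interferon of T and NK cells, had 83 and 185 UMIs, and Ifnl2 and Ifnl3 had 0. Plasmacytoid dendritic cells are a known source of type I interferon. In the subcluster led by their markers Siglech and Ccr9, Irf7 had 2 UMIs in WT and 5 in HKO, Usp18 had 0 and 6 and Rsad2 had 5 and 4.

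The genes whose levels were most like the sum of the 8 over classes were found over the same 20 pairs of class and library, among 14876 genes. They were Scarb2 (Pearson's r of log2 levels 0.940), Map7d1 (0.939), Selenon (0.924), Ifi204 (0.915) and Rnf213 (0.905), followed by 6430548M08Rik, Gab2, Il15, Hlx and Marcks (0.892 to 0.899). Of these, 1 was on the list of other type I interferon response genes, Ifi204. Over that list of 51 genes the median r was 0.464, over 5 receptors 0.714 and over all genes compared −0.0288. The likeness follows classes that differ in many genes and is a description.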

How the data were processed

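For each library the authors deposited a matrix of UMI counts, whole numbers that were not normalized, made with Cell Ranger 7.1.0 per the file header. The submitters' processing notes name mm10, R 3.0 and Seurat 3. The 3′ libraries had no replicates. Barcodes with at least 500 UMIs, 300 genes and at most 50% mitochondrial UMIs were kept. Scrublet's automatic threshold marked 0 WT and 1 HKO barcode, so the top-scoring 7019 and 2664 (0.8% per 1000 barcodes) were left out as doublets. Clustering (scanpy 1.11.5, 2000 variable genes without the interferon genes, 30 components, 15 neighbours, Leiden resolution 1.0) used both libraries without integration. A marker counted if detected in 10% of a cluster's barcodes and 2-fold above the rest. Clusters with 3 markers of a class other than hepatocytes against all barcodes were pooled and clustered again. Subclusters were named by the class with the most markers against the rest of the pool, or against all barcodes where no class had 3 in the pool. They were called mixed where another class had at least 3 and at least 0.5 times as many there. The pair of monocyte and dendritic with plasmacytoid dendritic markers was exempt and not called mixed. Subclusters with 3 hepatocyte markers in the pool and under 3 of any other class were divided by depth with the remaining barcodes. From these counts, CPM with exact Poisson intervals, shares with exact Clopper-Pearson intervals and ratios of HKO over WT with exact conditional intervals (95%) were computed (scipy 1.17.1) and tested on simulated data. Genes were compared at a mean of 10 CPM in hepatocyte-like barcodes or 10 counts elsewhere. The named genes are the 8 members, and from each list of pathway genes those with the highest counts and the highest and lowest ratios. The members and lists were chosen with earlier results of these data known. Alternatives covered depth minimum, mitochondrial share, doublets, clustering genes and resolution, thinning, free RNA and barcode ranges. The comparisons by subcluster were chosen after seeing the data. Barcode names of the WT library were not used here, so barcodes shared between the libraries were not counted.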

Additional observations from a re-analysis of the deposited data

Results flagged for a closer look

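In stellate-like barcodes Rsad2 had a ratio of HKO over WT of 0.142, from 6 UMIs in 4 WT barcodes and 2 UMIs in 21 HKO barcodes, and 5 of the 6 WT UMIs lay in 1 barcode, while in 5 other classes its counting interval lay above 1. It was singled out because its direction was opposite to theirs. The size of the stellate-like class depended on the settings. It had 4 and 22 barcodes with a mitochondrial share of at most 20%, and 47 and 82 with doublets kept. The difference between the classes was not tested.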

How the results depend on the processing

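No paired analysis was possible because each genotype had 1 library, and for the same reason no replicate could be left out. Depth limits these results: below 5140 UMIs, hepatocyte-like barcodes were called in HKO alone, because each library had its own minimum, and most ratios outside hepatocyte-like barcodes rest on fewer than 100 UMIs per library and gene. The log2 ratio of HKO over WT of the 8 genes summed in hepatocyte-like barcodes was 0.83. It was 0.97 after thinning to 1000 UMIs, 0.40 without a depth minimum and 0.72 with at least 5000 UMIs in both libraries. Under alternatives chosen after seeing the data, it was 0.74 without the 10 top barcodes, 0.81 without subclusters with markers of other classes, −0.070 at 5140 to under 10000 UMIs and 1.22 at 10000 to under 20000. Over the 5 ranges of mitochondrial share it was 0.12, 0.22, 1.04, 1.10 and 0.75. In T and NK-like barcodes the sum was at 0.07, and at 0.42 with free RNA subtracted, and in monocyte and dendritic-like barcodes at 0.18, and at −0.95 after thinning, in a class whose subclusters differed in their leading genes. The number of genes at least 1.5-fold higher, 3, was 1 at a fold of 2. Single genes changed sign in hepatocyte-like barcodes, all under alternatives added after seeing the data. At 5140 to under 10000 UMIs the log2 ratio was −0.16 for Isg15, −0.10 for Ifit1, −1.005 for Ifit2, −0.24 for Ifit3 and −0.85 for Rsad2. Rsad2 was at −0.054 from 20000 UMIs. Below a mitochondrial share of 2% Ifit2 was at −1.33 and Rsad2 at −2.98, at 2 to under 5% Isg15 was at −0.12, Usp18 at −0.17 and Rsad2 at −1.62, and at 20 to under 50% Ifit2 was at −0.90. Oasl2, whose counting interval included 1 at the outset, was at −0.74 and −0.045 in the lowest and highest depth ranges and at −1.03 and −0.24 at 5 to under 10% and 10 to under 20%. Over 174 alternatives for single genes, 158 log2 ratios were positive and 16 negative, and 121 lay within the counting interval of the reported value. Over 56 for the sums of 4 classes, 52 were positive and 4 negative, the other two negative ones being T and NK-like values of −0.011 with at least 1000 UMIs and −0.010 with a mitochondrial share of at most 20%, and 43 lay within the interval. The causes were not tested.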
